A study of Mus musculus with 48 samples.

Results

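The 10 genes described here make or use nicotinamide adenine dinucleotide (NAD). They were chosen by name, as 9 enzymes of NAD synthesis (Nampt, Nmnat1, Nmnat3, Naprt, Nadsyn1, Qprt, Haao, Kynu and Afmid) and Sirt1, an NAD-dependent deacetylase. All 10 were among the 12423 genes with values in both assays, and all 10 passed the minimum on low values that left 11863 genes to test. Kidneys of male C57BL/6JRj mice were collected every 2 h over the day, at 12 timepoints given as Zeitgeber time (ZT, hours after lights on; lights went off at ZT12). Each of 2 replicates per timepoint was a pool of 2 mice, and each pool gave 1 library of ribosome-protected fragments (RPF-seq, the footprints of translating ribosomes) and 1 of RNA (RNA-seq), 48 libraries in all. The mice were 11 to 12 weeks old and had been entrained to 12 h of light and 12 h of dark, and the groups differed in time of day only, with no treatment or genotype compared. Whole kidney was used, so fewer cells of a type and less RNA per cell cannot be told apart.

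NAD carries electrons in metabolism and is consumed as a substrate by sirtuins, poly-ADP-ribose polymerases and CD38-type enzymes. Cells make it from tryptophan (the de novo route, through Afmid, Kynu, Haao and Qprt), from nicotinic acid (through Naprt and, as a last step, Nadsyn1) and by salvage of nicotinamide, where Nampt catalyses the rate-limiting step and the Nmnat enzymes complete the dinucleotide. Nampt transcription is a known output of the circadian clock in other tissues, and SIRT1 is known to act back on clock proteins. The kidney, mainly its proximal tubule, is among the organs that run the de novo route.

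Clock proteins bind the E-box, CACGTG, so the proximal promoters of the members were searched for it. RefSeq promoter windows (GRCm38.p6, 250 bases before to 50 after the start site) were found for 8 of the 10 members, in 9 windows, with none for Naprt and Kynu. The E-box reads the same on both strands and was present in 7.15% of all 32851 promoter windows. Among the members it was found only in Sirt1, at 2 places whose first bases lay at -115 and -43 from the start site. A variant, CACGTT on either strand, which does not overlap CACGTG, was present in 4.68% of all windows and, among the members, only in Haao, at 40 bases after the start. The same 100-base stretch, -130 to -31 from the start site, is shown for Sirt1 (chr10:63339066-63339165, minus strand) and for Nampt (chr12:32820205-32820304, plus strand), the members with a 24-h component in all 3 measures, with the E-boxes in capitals. Both stretches lie upstream of the RefSeq start and inside the longer gene span of the Ensembl annotation.
Sirt1: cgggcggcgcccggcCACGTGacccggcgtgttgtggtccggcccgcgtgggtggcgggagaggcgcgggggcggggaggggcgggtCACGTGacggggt
Nampt: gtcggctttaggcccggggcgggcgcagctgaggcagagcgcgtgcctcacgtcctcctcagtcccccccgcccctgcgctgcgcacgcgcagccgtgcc
The letters describe these windows alone. A match is no evidence of binding, and the absence of a match in the Nampt window says nothing of sites elsewhere.

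Haao, which makes the precursor that Qprt uses, and Nampt were the most abundant members, and Kynu was the least abundant. Levels are given in RPKM (reads normalised to gene length and library size), which are per length and can be set side by side. Haao stood at 178 ± 17.8 RPKM (SD, n = 24 libraries) in RNA-seq and 218 ± 20.2 RPKM in RPF-seq. Nampt followed with 146 ± 29.7 and 187 ± 37.5 RPKM, above 92.8% and 92.6% of all genes tested. Qprt, the enzyme that feeds the de novo route into NAD, had 57.0 ± 9.67 and 103 ± 15.2 RPKM. Afmid, a formamidase of the tryptophan route, had 44.1 ± 6.82 and 44.0 ± 7.73 RPKM, and Naprt had 27.6 ± 4.12 and 32.3 ± 4.28 RPKM. A group of 4 genes with similar levels came next. It held Nmnat1 (15.6 ± 1.39 and 15.6 ± 1.44 RPKM), which works in the nucleus, Nadsyn1 (15.5 ± 2.60 and 16.3 ± 2.87 RPKM), Nmnat3 (13.2 ± 1.96 and 12.5 ± 2.47 RPKM) and Sirt1 (11.1 ± 1.24 and 12.0 ± 1.11 RPKM). Kynu, the kynureninase of the tryptophan route, had 5.19 ± 2.50 and 7.54 ± 2.88 RPKM.

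The order was the same in both assays except that Nmnat1 and Nadsyn1 changed places. The mean paired difference of neighbours in the order departed from 0 for 8 of 9 pairs at the RNA level and 7 of 9 at the footprint level. The test was a two-sided permutation test on paired log2 values, with 100000 sign reversals, adjusted over the 9 pairs of an assay. It concerns the mean and not the spread of the pools. Nmnat3 RNA, for example, was above Sirt1 by 0.24 on the log2 scale with an SD of 0.33. Nmnat1 and Nadsyn1 were not separated at the RNA level (adjusted p = 0.75) or RPF-seq (adjusted p = 0.518), and Nmnat3 and Sirt1 were not separated in RPF-seq (adjusted p = 0.674). Haao was above Nampt in 18 of 24 pools in RNA-seq, by 0.31 on the log2 scale (SD 0.35, adjusted p = 0.00066), and in 17 of 24 in RPF-seq.

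Translation efficiency (TE, the footprint RPKM divided by the RNA RPKM of the same pool) was highest in Qprt and Kynu. Mean TE was 1.85 ± 0.374 (SD, n = 24 pools) for Qprt, above 92.4% of all genes, and 1.54 ± 0.319 for Kynu, above 82.9%. Nampt followed with 1.29 ± 0.165, at percentile 72.3. The other members lay between 0.960 (Nmnat3) and 1.23 (Haao). The median gene stood at 0.956, taken from mean log2 TE. On that measure Nmnat3 was at percentile 48.7, just below the median gene, and the rest ran from 52.8 (Afmid) to 68.8 (Haao). Because each assay was normalised on its own, a TE is a relative value and not footprints per mRNA molecule.

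**Figure D1:**
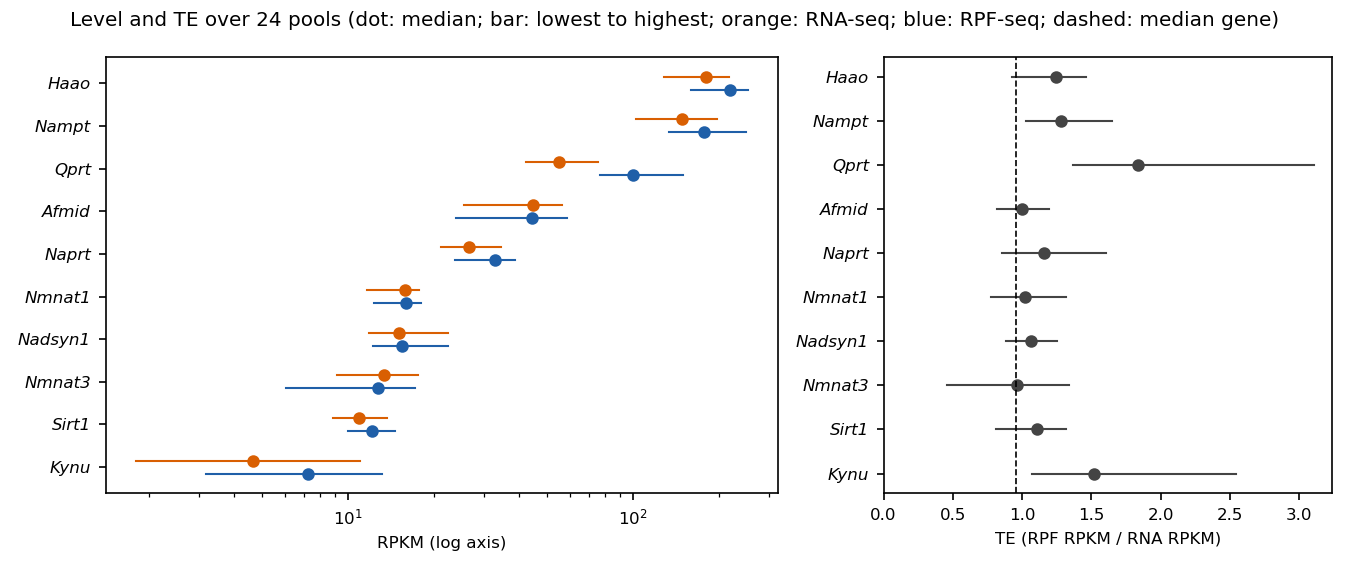
Level in RPKM (left, log axis) and translation efficiency (right, linear axis) of the 10 members over 24 pools. Dots are medians and bars run from the lowest to the highest pool. The dashed line is the median gene's TE of 0.956, taken from mean log2 TE. Haao and Nampt lead in both assays, Kynu has the widest relative range, and Qprt has the highest median TE.

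The rhythm of each gene was fitted as a 24-h cosine on log2(RPKM + 0.1) and tested with limma over all 11863 genes, and a gene was called rhythmic at a false discovery rate (FDR) under 0.05 and a fitted peak-to-trough fold of at least 1.5. In RNA-seq 2 of the 10 members were called, Nampt and Kynu, against 10.2% of all genes. In RPF-seq 3 members were called, Nampt, Kynu and Nadsyn1, against 7.58%. For TE the limma test called 0 of 10, against 3.74%. Without the fold cutoff, 6 members passed for RNA (48.6% of all genes did), 5 for footprints (30.9%) and 2 for TE (17.1%), and 5 members had an unadjusted p under 0.05 in TE. The median fitted log2 peak-to-trough fold of the 10 members was 0.39 for RNA, 0.35 for footprints and 0.22 for TE, beside 0.27, 0.24 and 0.25 over all genes tested. The members were thus spread over the range of all genes, with a few strongly rhythmic ones and several nearly flat ones.

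**Figure D2:**
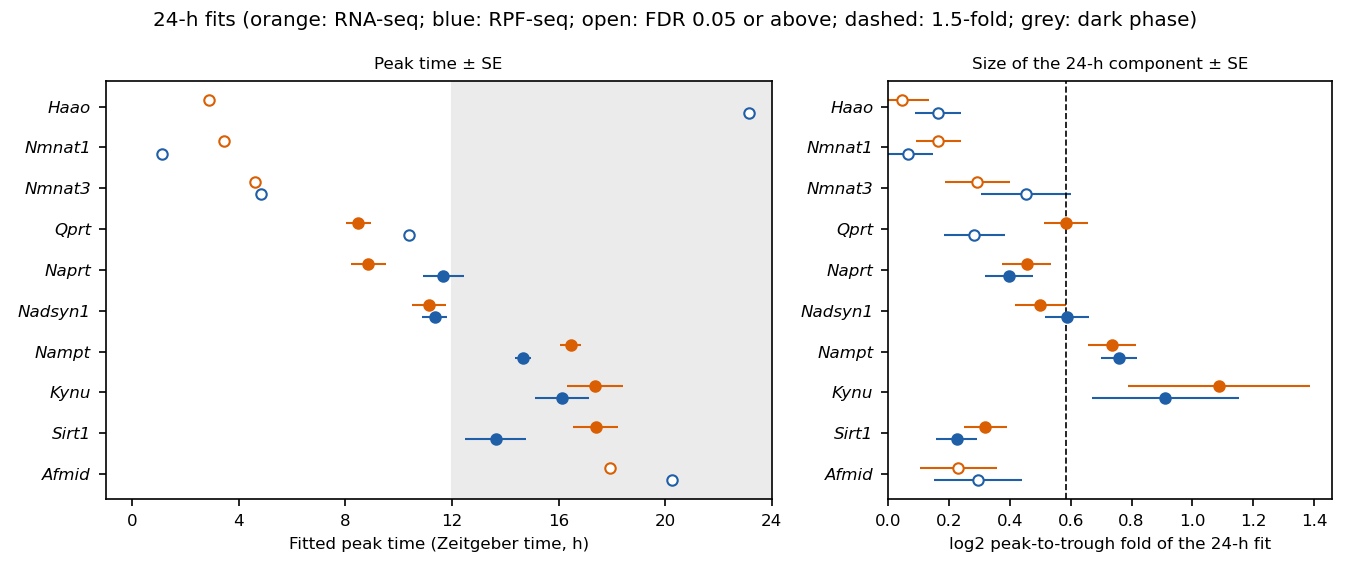
Fitted peak time (left, Zeitgeber time in h, ± SE where the FDR was under 0.05) and log2 peak-to-trough fold (right, ± SE) of the 24-h fit of each member in RNA-seq (orange) and RPF-seq (blue); open symbols mark an FDR of 0.05 or above, the dashed line is the 1.5-fold cutoff and grey is the dark phase. Nampt and Kynu lie beyond the cutoff in both assays, and peak times of the members that passed the FDR run from ZT8.5 to ZT17.4.

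Nampt rose through the second part of the light phase and was high in the dark, and its footprints were ahead of its RNA. In RNA-seq, the 2 pools had 120.3 and 121 RPKM at ZT00, 119 and 123 at ZT02, 103 and 128 at ZT04, 103 and 108 at ZT06, and 111 and 126 at ZT08. The RNA then stood at 154 and 147 RPKM at ZT10, 160.3 and 196 at ZT12, 151 and 158 at ZT14, 182 and 163 at ZT16, 197 and 182 at ZT18, 184 and 172 at ZT20, and 158 and 140.5 at ZT22. All 10 libraries from ZT00 to ZT08 (103 to 128 RPKM) were below all 14 libraries of the other timepoints (140.5 to 197 RPKM). The fit gave a log2 peak-to-trough fold of 0.74 ± 0.08 (SE), a 1.66-fold change, with a peak at ZT16.5 ± 0.40 h (limma, FDR = 2.89e-07).

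Footprints on Nampt had 139.7 and 155 RPKM at ZT00, 134 and 164 at ZT02, 154 and 142 at ZT04, 139 and 148 at ZT06, and 161 and 177 at ZT08. They rose to 208 and 210.1 RPKM at ZT10, 225 and 241 at ZT12, and 249 and 249.7 at ZT14. Thereafter the values were 233 and 206 at ZT16, 210.5 and 224 at ZT18, 195 and 176 at ZT20, and 175 and 175 at ZT22. All 10 libraries from ZT10 to ZT18 (206 to 249.7 RPKM) were above the other 14 (134 to 195 RPKM). The highest timepoint mean was thus at ZT14 in RPF-seq and at ZT18 in RNA-seq, and the lowest at ZT06 in both. The fitted log2 fold was 0.76 ± 0.06 (SE), or 1.69-fold, with a peak at ZT14.7 ± 0.30 h (limma, FDR = 2.62e-09).

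The footprint peak of Nampt came 1.80 h before the RNA peak (RPF minus RNA -1.80 h, 95% interval -2.69 to -0.91 h), and with a 12-h harmonic added to the curve the difference was -3.50 h. Its TE ranged from 1.03 to 1.65 and was highest in the 2 pools of ZT14 (1.65 and 1.58) and lowest in the 2 pools of ZT20 (1.06 and 1.03). At ZT06 to ZT10, when the RNA was low or rising, the 6 TE values lay between 1.35 and 1.45. The 24-h component of TE had a log2 peak-to-trough fold of 0.35 ± 0.08 (SE), or 1.27-fold, and peaked at ZT9.8 ± 0.92 h (limma, FDR = 0.0187), under the fold cutoff. It stayed under an FDR of 0.05 in all 24 fits that left out a single pool. With 1 replicate series alone it did not. Such a fit holds 1 pool per timepoint, and nearly all TE calls over all genes were then lost too. Without replicate 1 the peak difference was -1.40 h with an interval that included 0. Nampt was among the genes whose kidney profiles the study chose to show for their timing, so this result is no independent evidence of it.

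**Figure D3:**
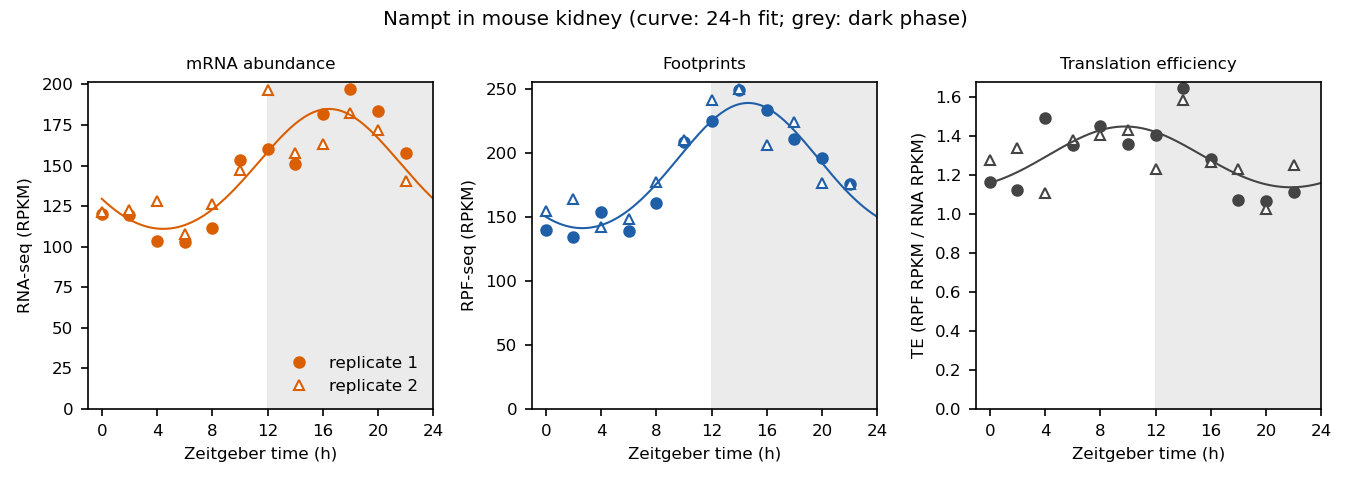
Nampt over the day in RNA-seq (left, RPKM), RPF-seq (middle, RPKM) and TE (right, footprint RPKM divided by RNA RPKM); each symbol is 1 pool (filled circles replicate 1, open triangles replicate 2), curves are 24-h fits and grey is the dark phase. Footprints culminate at ZT14, with 249 and 249.7 RPKM, while RNA is highest at ZT18, with 197 and 182 RPKM.

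Sirt1 had a shallow rhythm, with RNA highest in the dark and footprints and TE earlier. In RNA-seq the 2 pools had 10.1 and 10.6 RPKM at ZT00, 10.0 and 10.1 at ZT02, 8.87 and 10.4 at ZT04, 11.3 and 9.35 at ZT06, 9.90 and 10.5 at ZT08, and 10.8 and 11.2 at ZT10. From ZT12 on the values were 10.1 and 13.0 RPKM, 10.5 and 11.0 at ZT14, 12.7 and 12.6 at ZT16, 11.2 and 12.3 at ZT18, 12.3 and 13.8 at ZT20, and 12.0 and 12.0 at ZT22. The day and night values overlapped, with the 2 highest of the 24 libraries at ZT20 and ZT12. The fitted log2 fold was 0.32 ± 0.07 (SE), or 1.25-fold, with a peak at ZT17.4 ± 0.85 h (limma, FDR = 0.00243).

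Footprints on Sirt1 spanned 10.0 to 14.7 RPKM, with the highest value in replicate 2 of ZT10 and the highest timepoint mean, 13.6 RPKM, at ZT16. Their fitted log2 fold was 0.23 ± 0.07 (SE), or 1.17-fold, with a peak at ZT13.6 ± 1.15 h (limma, FDR = 0.0365). That FDR was 0.05 or above in 7 of the 24 fits that left out a single pool and ranged from 0.0191 to 0.350 over all fits run, and with a single replicate series neither assay passed. The footprint peak preceded that of the RNA by 3.75 h (95% interval of RPF minus RNA -6.24 to -1.27 h). TE of Sirt1 was between 1.11 and 1.32 in the 6 pools of ZT06 to ZT10, and its lowest timepoint mean was at ZT20 (0.904 and 0.814). The TE component was 1.21-fold, peaked at ZT8.3 ± 1.10 h and was near the threshold (limma, FDR = 0.0465). It was under 0.05 in 7 of the 24 fits that left out a single pool, and the limma FDR was 0.134 when the assays of a pool were not paired, in a range from 0.0216 to 0.443 over all fits run. The Nampt and Sirt1 peak differences had intervals on the same side of 0, and no interval was adjusted for the number of members compared.

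Kynu had the largest fitted fold of the members and by far the largest spread between pools. In RNA-seq the 2 pools had 3.21 and 3.58 RPKM at ZT00, 3.03 and 3.02 at ZT02, 4.28 and 3.74 at ZT04, 4.40 and 1.81 at ZT06, 3.75 and 5.38 at ZT08, and 2.14 and 7.22 at ZT10. Later in the day they had 3.82 and 4.90 RPKM at ZT12, 2.46 and 8.0 at ZT14, 11.0 and 10.5 at ZT16, 5.12 and 5.95 at ZT18, 6.90 and 4.98 at ZT20, and 6.70 and 8.62 at ZT22. Only at ZT16 did both pools exceed 10 RPKM, and the pools of ZT10 and of ZT14 differed by more than 3-fold. In RPF-seq the values at ZT16 were 12.5 and 13.1 RPKM, again the highest, at ZT10 they were 5.44 and 12.2, and at ZT14 they were 4.56 and 12.0. The remaining RPF-seq libraries of Kynu lay between 3.19 and 11.3 RPKM.

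The fit gave Kynu a log2 fold of 1.09 ± 0.30 (SE), or 2.12-fold, in RNA-seq, with a peak at ZT17.4 ± 1.05 h (limma, FDR = 0.0138). In RPF-seq the log2 fold was 0.91 ± 0.24, or 1.88-fold, with a peak at ZT16.1 ± 1.01 h (limma, FDR = 0.0161). RPF minus RNA was -1.25 h with a 95% interval from -2.52 to 0.02 h, and became -0.35 h with a 12-h harmonic. TE had no 24-h component past the test (limma, FDR = 0.144). Both calls held in all 24 fits that left out a single pool but were lost in several other fits. Without replicate 2 the FDR was 0.129 for RNA and 0.311 for footprints, and with timepoint as a factor it was 0.104 and 0.197. Over all fits run the FDR ranged from 0.00221 to 0.129 and from 0.00252 to 0.311.

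**Figure D4:**
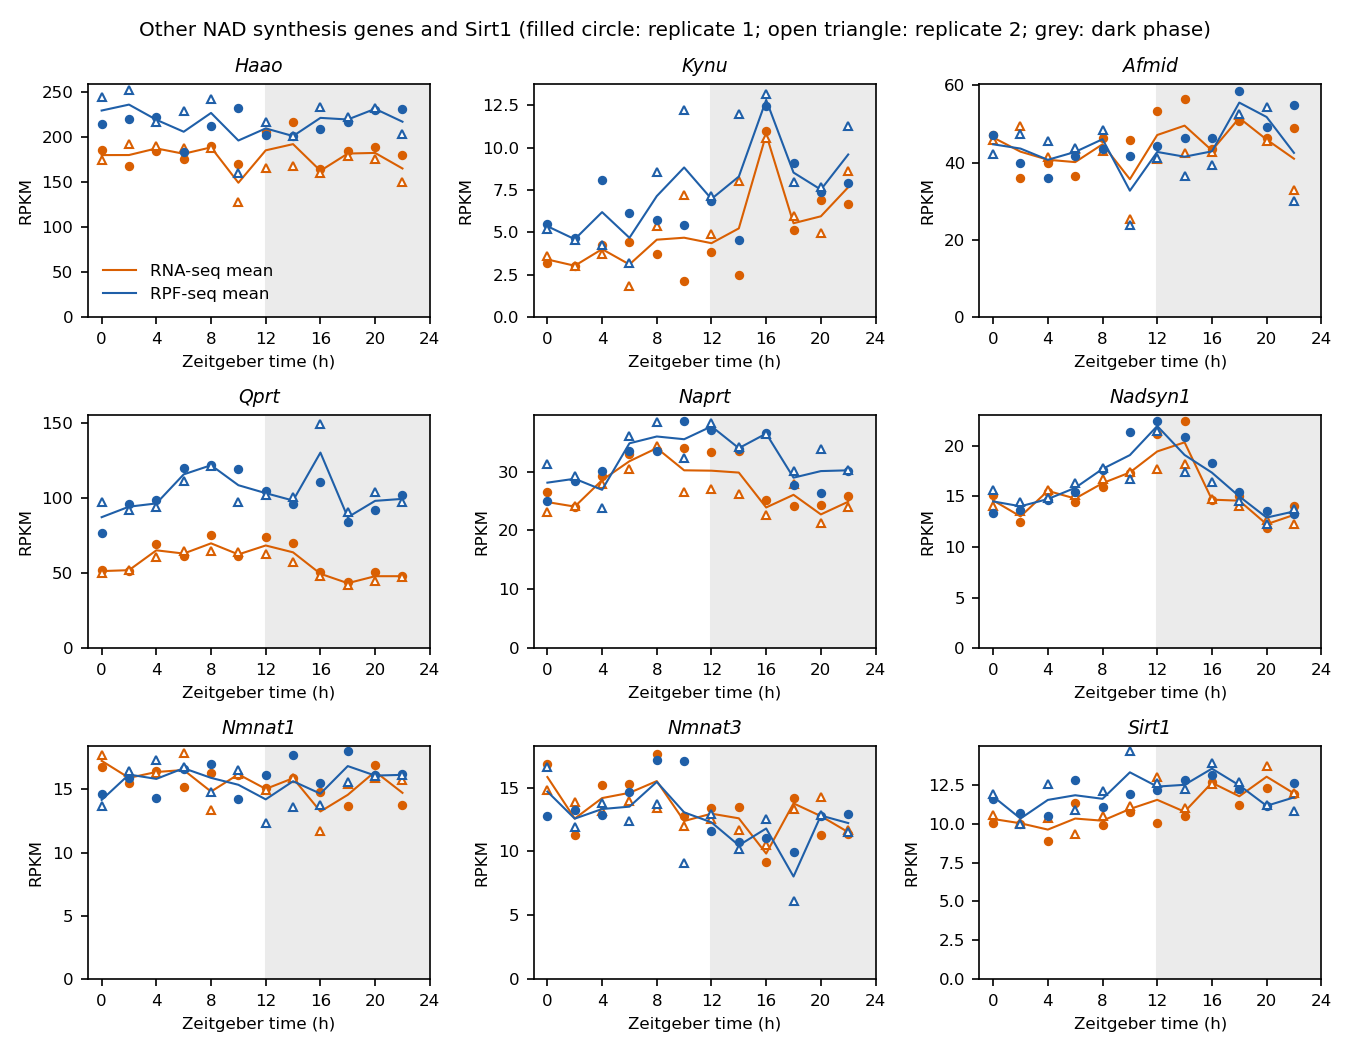
RPKM over the day of the 9 members other than Nampt in RNA-seq (orange) and RPF-seq (blue); each symbol is 1 pool (filled circles replicate 1, open triangles replicate 2), lines join timepoint means and grey is the dark phase. Nadsyn1 has its highest timepoint mean at ZT14 in RNA-seq and at ZT12 in RPF-seq, and Qprt RNA falls after ZT14. The pools of Kynu at ZT10 and ZT14 and of Afmid at ZT10 and ZT22 lie far apart.

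Nadsyn1, the amidating enzyme that ends the nicotinic acid and de novo routes, peaked around dusk in both assays. In RPF-seq all 10 libraries from ZT08 to ZT16 (16.4 to 22.5 RPKM) were above the other 14 (12.3 to 16.3 RPKM). The 2 pools of ZT12 had 22.5 and 21.5 RPKM, and those of ZT20 had 13.5 and 12.3 RPKM. The footprint fold was 1.504, with a log2 fold of 0.59 ± 0.07 (SE) and a peak at ZT11.4 ± 0.47 h (limma, FDR = 5.30e-06). In RNA-seq the fold was 1.41 with a peak at ZT11.2 ± 0.64 h (limma, FDR = 0.00013). The peaks of RNA and footprints differed by 0.21 h (95% interval -1.001 to 1.41 h), and TE had no 24-h component past the test (limma, FDR = 0.663). The footprint fold lay at the cutoff, and 7 of the 24 fits that left out a single pool put it under 1.5, with FDRs under 0.05 in all 24. Without replicate 1 the log2 fold was 0.46 and the FDR 0.0808, the highest of all fits run, and the call was lost.

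Qprt stood just under the same cutoff in RNA-seq, at 1.4997-fold (log2 fold 0.58 ± 0.07, SE). All 12 RNA-seq libraries from ZT04 to ZT14 (57.6 to 75.2 RPKM) were above the other 12 (42.3 to 52.3 RPKM), and the fitted peak was at ZT8.5 ± 0.47 h (limma, FDR = 2.73e-06). In RPF-seq Qprt had a fold of 1.22 that did not pass (limma, FDR = 0.0785). The footprint values had a high pair at ZT08 (122 and 122 RPKM) and a second one at ZT16 (111 and 149.6 RPKM), when the RNA had already fallen to 50.9 and 48.2 RPKM. TE of Qprt was accordingly highest at ZT16, with 2.18 and 3.10, and lowest at ZT14 in replicate 1, with 1.37, but its 24-h component did not pass the test (limma, FDR = 0.143). The highest timepoint mean of TE was at ZT16 also for Naprt (1.53), Haao (1.36), Nmnat3 (1.20) and Nadsyn1 (1.18). The other members had it at other times, and Kynu had its lowest mean at ZT16 (1.19). Replicate 2 of ZT16 was also the pool with the highest TE of Naprt (1.605) and of Haao (1.459). The pool with a TE of 3.10, replicate 2 of ZT16, also had the highest summed level of thick ascending limb markers (2 genes, 6256 RPKM in RPF-seq against a median of 4301) and of the collecting duct marker Aqp2 (450.3 RPKM against 197). The part of this in the Qprt value was not tested.

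Naprt, which starts NAD synthesis from nicotinic acid, had a 1.37-fold RNA rhythm that peaked at ZT8.9 ± 0.66 h (limma, FDR = 0.00021) and a 1.32-fold footprint rhythm that peaked at ZT11.7 ± 0.77 h (limma, FDR = 0.0019). Its RNA was highest at ZT08 (33.6 and 34.3 RPKM) and its footprints at ZT12 (37.0 and 38.3 RPKM). The footprint peak followed the RNA peak by 2.82 h (95% interval 0.61 to 5.02 h), the opposite order to Nampt and Sirt1. The TE component of Naprt did not pass (limma, FDR = 0.134). Over all fits run the FDR of Naprt reached 0.0838 for RNA and 0.290 for footprints, and without replicate 2 the interval of the peak difference included 0. Of the 5 members with an FDR under 0.05 in both assays, 2 had footprints before the RNA with an interval that excluded 0 (Nampt and Sirt1), 1 had them after it (Naprt), and the interval included 0 for the other 2 (Kynu and Nadsyn1).

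Haao, Afmid and the Nmnat genes had no 24-h component past the test in either assay. Haao RNA had a fitted fold of 1.03 (limma, FDR = 0.887), lower than all but 2.6% of all genes, and its RNA libraries spanned 128 to 217 RPKM. Its footprints had a fold of 1.12 (limma, FDR = 0.212). Nmnat1 had folds of 1.12 in RNA-seq (limma, FDR = 0.163) and 1.05 in RPF-seq (limma, FDR = 0.802), and its libraries spanned 11.7 to 17.8 and 12.3 to 18.1 RPKM. Nmnat3, which is placed in mitochondria, had folds of 1.23 (limma, FDR = 0.0696) and 1.37 (limma, FDR = 0.0562), with fitted peaks at ZT4.6 and ZT4.8. Few reads stood behind Nmnat3, 47 in its thinnest RNA-seq library and 49 in its thinnest RPF-seq library, and counting alone then gave an error of 14.6% and 14.3%. Afmid had folds of 1.17 (limma, FDR = 0.286) and 1.23 (limma, FDR = 0.249).

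Deviations from the 24-h fit were shared between the RNA and footprints of a pool for Kynu and Afmid, and less so for the other members. Pearson's r between the RNA-seq and RPF-seq deviations over the 24 pools was 0.91 for Kynu and 0.84 for Afmid, above 99.4% and 98.4% of all genes, beside a median of 0.25. The 2 values of a pool share the animals but not the library. Haao had 0.46, Nadsyn1 0.48, Nampt 0.34 and Sirt1 0.33, while Naprt (-0.08) and Qprt (-0.24) were below 0. The SD of the deviations of Kynu was 0.58 on the log2 scale in RNA-seq and 0.46 in RPF-seq, larger than in 98.9% and 94.9% of all genes. Nampt varied by 0.14 and 0.10. Counting error at the thinnest Kynu libraries was 16% (39 reads) in RNA-seq and 9.6% (108 reads) in RPF-seq.

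In replicate 2 of ZT10 and of ZT22, Afmid and Haao were below their fits while Kynu was above its fit. Replicate 2 of ZT14 had the same signs in both assays with smaller deviations. There, RNA and RPF were at -0.091 and -0.229 for Afmid, -0.055 and -0.048 for Haao, and 0.422 and 0.376 for Kynu. In replicate 2 of ZT10, Afmid lay 0.72 below its RNA fit and 0.72 below its footprint fit on the log2 scale (RNA -0.715 and RPF -0.723), and Kynu lay 0.81 and 0.80 above. Haao was at its lowest in both assays in that pool, with 128 RPKM for RNA and 159.7 for footprints. In replicate 2 of ZT22 the deviations were -0.46 and -0.65 for Afmid, -0.25 and -0.17 for Haao and 0.68 and 0.65 for Kynu. In the 2 pools of ZT16, where Kynu was highest, the RNA deviations were -0.098 and -0.129 for Afmid and -0.08 and -0.121 for Haao. Their footprint deviations lay on both sides of the fit, at 0.034 and -0.196 for Afmid and -0.03 and 0.133 for Haao. Kynu was lowest relative to its fit in replicate 1 of ZT14, at -1.24 and -1.0, where the Afmid deviations were 0.32 and 0.11. Over the 24 pools r between the deviations of Afmid and Haao was 0.92 in RNA-seq and 0.58 in RPF-seq, between Afmid and Kynu it was -0.65 and -0.57, and between Haao and Kynu it was -0.59 and -0.34. The values of 2 genes in a pool share the library, and of the 45 pairs of members 5 exceeded 0.5 for RNA and 2 for footprints, while 3 and 1 were under -0.5. In RNA-seq, replicate 2 of ZT10 also had the lowest summed level of the 4 proximal tubule markers (3980 RPKM, median 4096, highest 4533). It was also lowest for the 2 thick ascending limb markers (2523 RPKM, median 3001) and the 3 hepatocyte markers (9.58 RPKM, median 23.6). Replicate 2 of ZT22 was lowest in none of these groups, at 4023, 2892 and 13.7 RPKM. The part of the marker levels in the values of replicate 2 of ZT10 was not tested. With that pool and replicate 2 of ZT22 left out, Kynu had FDRs of 0.00961 for RNA and 0.00794 for footprints, and Afmid had 0.0973 and 0.0685.

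**Figure D5:**
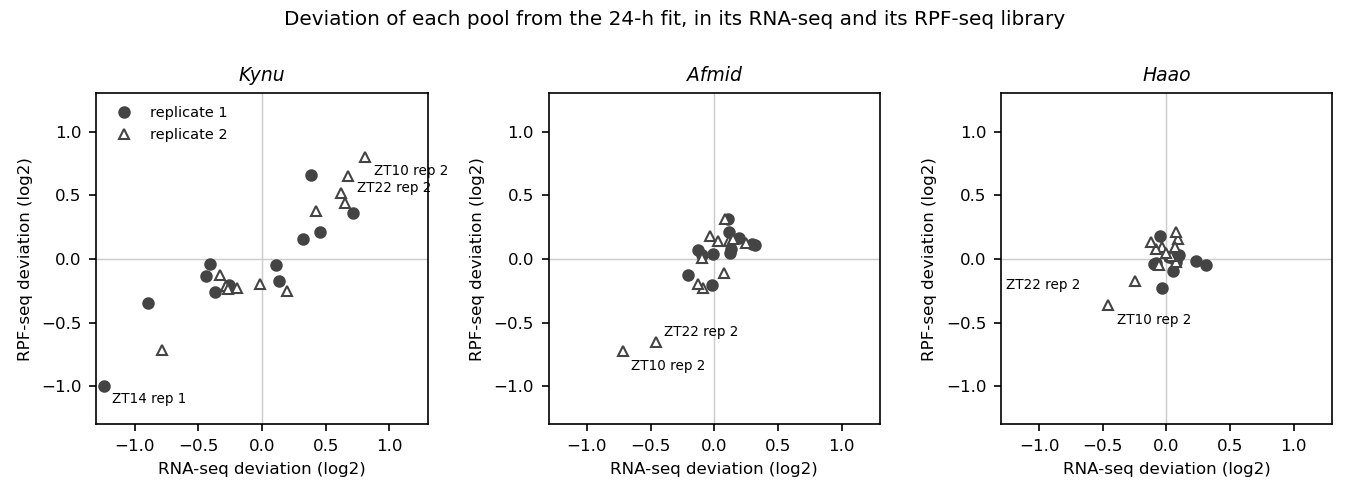
Deviation of each pool from the 24-h fit in its RNA-seq library (horizontal axis, log2) and its RPF-seq library (vertical axis, log2) for Kynu, Afmid and Haao; filled circles are replicate 1 and open triangles replicate 2. Replicate 2 of ZT10 is high for Kynu (0.81 and 0.80) and low for Afmid (-0.72 in both) and Haao (-0.46 and -0.36).

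Among 14 other genes of NAD synthesis, 9 were tested. At the RNA level 2 of the 9 were called rhythmic and at the footprint level 3, beside 10.2% and 7.58% of all genes. The FDR alone was passed by 6 in each assay, beside 48.6% of all genes for RNA and 30.9% for footprints. Acmsd, the decarboxylase that diverts the de novo route away from NAD, had the largest change of the list, 2.43-fold in RNA-seq with a peak at ZT0.9 (limma, FDR = 3.90e-10) and 2.10-fold in RPF-seq with a peak at ZT1.2 (limma, FDR = 1.13e-07). Its fitted peak thus fell at the start of the light phase, whereas Qprt RNA peaked at ZT8.5 and Kynu RNA at ZT17.4. Nmrk1, the kinase that salvages nicotinamide riboside, rose to ZT13.6 in RNA-seq (1.63-fold; limma, FDR = 0.00016) and ZT13.8 in RPF-seq (1.56-fold; limma, FDR = 0.00215). Kyat1, an aminotransferase that draws off kynurenine, was called in RPF-seq only (1.54-fold, peak at ZT8.9; limma, FDR = 0.000165) and had 1.43-fold in RNA-seq. TE was called in 0 of the 9 by limma, beside 3.74% of all genes, and 4 had an unadjusted p under 0.05. In TE 3 passed the FDR alone (Ido2, Kmo and Aadat), beside 17.1% of all genes. Kmo, the step before Kynu, had a 1.29-fold RNA rhythm with a peak at ZT17.9 (limma, FDR = 0.00331) and 1.11-fold in RPF-seq (limma, FDR = 0.152). The members of the list not tested were Tdo2, Ido1, Nmnat2, Nmrk2 and Pnp, which are not analysed here.

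Genes that consume NAD or clear nicotinamide had shallow fitted rhythms. Of 17 listed, 14 were tested, and limma called 0 for RNA, footprints and TE, while 7, 7 and 4 had an unadjusted p under 0.05 and 6, 6 and 1 passed the FDR alone. Over all genes 10.2%, 7.58% and 3.74% were called and 48.6%, 30.9% and 17.1% passed the FDR alone, so a count of 0 in 14 lies near the background. Sirt3, the main mitochondrial deacetylase of the family, had 1.36-fold in RPF-seq with a peak at ZT10.2 (limma, FDR = 0.000979). Sirt7, a nucleolar sirtuin, had 1.34-fold in RNA-seq with a peak at ZT11.0 and 1.32-fold in RPF-seq with a peak at ZT7.3, and was the gene of this list with a TE component (limma, FDR = 0.0141). Of the 2 regulators of Sirt1, Ccar2, which inhibits the enzyme, had 1.31-fold in RNA-seq with a peak at ZT6.8 (limma, FDR = 5.37e-05) and 1.24-fold in RPF-seq (limma, FDR = 0.00126), and Rps19bp1, an activator, did not pass (limma, FDR = 0.586 and 0.114). No gene of either list reached the 1.5-fold cutoff in any measure.

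As a reference for these times, all 12 clock genes listed were called in both assays. Nr1d1 RNA peaked at ZT7.5, Dbp RNA at ZT10.5, Per2 RNA at ZT14.7, Cry1 RNA at ZT18.5 and Arntl RNA at ZT22.5. Nampt RNA thus peaked between Per2 and Cry1, and Nadsyn1 RNA shortly after Dbp. Folds of these clock genes were 1.64 to 42.1 in RNA-seq, so the rhythm of Nampt was close to that of Clock (1.64-fold), the flattest of them.

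Profiles most like those of the called members were found by Pearson's r over the 24 libraries of an assay. For Nampt RNA they were Akr1c19 (r = 0.94), Agmo (0.93) and Hif1a (0.93), which peaked between ZT16.2 and ZT17.0. For Nampt footprints they were Ak4 (0.92), Slc25a13 (0.91) and Cers6 (0.90), with peaks between ZT14.4 and ZT15.0. Nadsyn1 footprints were nearest to Galnt11 (0.92), Pank3 (0.89) and Bhlhe41 (0.88). For Kynu they were Gpr89 (0.81), Rdh16f2 (0.81) and Ahr (0.78) in RNA-seq and Rdh16f2 (0.78), Abcc4 (0.77) and Acot3 (0.76) in RPF-seq. Of the Kynu neighbours, only Gpr89 in RNA-seq and Acot3 in RPF-seq passed an FDR of 0.05 themselves (limma, FDR = 0.00656 and 0.00581), and Rdh16f2, Ahr and Abcc4 did not (0.301 and 0.110 for Rdh16f2 and Ahr RNA, 0.0682 and 0.488 for Rdh16f2 and Abcc4 footprints).

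The libraries carried the markers of kidney, with all 10 segment markers tested, from the proximal tubule to podocytes. Of 4 adrenal cortex markers, 0 were listed in both assays. Adipocyte markers were low (3 of 5 listed, summed 0.532 to 9.03 RPKM in RNA-seq), and blood markers (2 of 3 listed) were highest in replicate 1 of ZT16, at 215 RPKM in RNA-seq against a median of 58.0. Kynu RNA was at 11.0 RPKM in that pool and at 10.5 RPKM in the other pool of ZT16. Relative depth ranged from 0.598 to 2.04 of the median library for RNA and from 0.701 to 1.58 for footprints. RNA depth varied with time of day, at 0.929 to 1.61 from ZT00 to ZT04 and 0.598 to 0.832 from ZT18 to ZT22. At the times between it spanned 0.756 to 2.04. In RPF-seq the early and late libraries overlapped in depth. The part of depth in the fits was not tested. Replicate 2 of ZT04 listed 162 genes at 0 in RPF-seq, and it is among the pools left out in turn.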

How the data were processed

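Kidney RNA and ribosome footprints of the same pools were measured in 48 libraries, 24 per assay. The deposited values are RPKM per gene over coding sequences. For this the authors removed adapters (Cutadapt), selected fragment sizes, mapped reads with Bowtie2 2.2.1 and TopHat2 2.0.11 to GRCm38, used Cufflinks 2.2.1 for transcript models, normalised by upper quantiles with edgeR and left out genes under an RPKM cutoff. A change in total RNA per cell is therefore not visible. From these values log2(RPKM + 0.1) was computed, and 24-h cosines were fitted with limma 3.58.1 in R 4.3.3 (trend). The FDR was by Benjamini-Hochberg over 11863 genes with a median of at least 0.5 RPKM in both assays. On simulated data run first, 87% of 1.5-fold rhythms were recovered for RNA and 76% for footprints, over 11863 genes. Recovery, also for TE below, was counted at an FDR under 0.05 without the fold cutoff. It is thus not the share of such rhythms that would be called. In the simulation 100 genes of each fold were rhythmic, 50 of them with an earlier footprint peak, and all others were flat. In the data 48.6% of genes passed the FDR for RNA, 30.9% for footprints and 17.1% for TE. The p-value that an FDR of 0.05 requires depends on this share, so recovery in the data can differ. TE was fitted on the difference within a pool, and intervals of peak differences came from the delta method at the 95% level. TE of a simulated 2-h earlier footprint peak was recovered in 8% of 1.5-fold and 44% of 2-fold rhythms. RPKM values fell on whole-read steps, which gave reads and relative depth. Errors computed from these reads cover counting error only. RPKM does not hold counts, and no count model was fitted.

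Groups were timepoints of 2 replicates, taken from the labels, each a pool of separate mice. Replicate numbers were not treated as pairing the timepoints. Replicate differences of 2 timepoints had a mean r of 0.029 for RNA and 0.020 for footprints, with 13 and 10 of 66 pairs above 0.1. The highest r was 0.48 for RNA and 0.185 for footprints. Of the 24 libraries of an assay, 14 for RNA and 18 for footprints were closer to libraries of their own replicate number, so a weak pairing may remain. RNA and RPF of a pool were paired, as they come from the same animals (mean r 0.238, above 0.1 in 12 of 12). The alternatives tried were other pseudocounts, RPKM minimums, thresholds, curve shapes, normalisation, the replicate block and left-out libraries. All 10 members are named whatever their values, as are genes called in 3 lists of related genes and the 3 nearest profiles of each called member; Kmo, Sirt3, Sirt7, Ccar2 and Rps19bp1 were picked for mention after their values were seen, as were the stretches of the day whose libraries did not overlap. The members and lists were chosen with earlier results of these data known.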

Additional observations from a re-analysis of the deposited data

Results flagged for a closer look

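Both results below were flagged by a test of the difference between the footprint and RNA rhythms of a gene, the 24-h component of TE. Of the 10 members 2 passed its FDR, beside 17.1% of all genes, so the count lies near the background. The TE folds were at percentile 71.9 of all genes for Nampt and 55.6 for Sirt1. For Nampt the log2 peak-to-trough fold of TE was 0.35 ± 0.08 (limma, FDR = 0.0187), with a TE peak at ZT9.8. For Sirt1 it was 0.27 ± 0.08 (limma, FDR = 0.0465), with a TE peak at ZT8.3. In both, the lowest timepoint mean of TE was at ZT20. The FDR ranged from 0.0102 to 0.0414 for Nampt and from 0.0216 to 0.113 for Sirt1 when single pools were left out. Timepoint groups hold 2 pools each, so no test for outlying samples was made within them.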

How the results depend on the processing

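In RNA-seq the 2 calls became 1 at an FDR under 0.01, 6 with no fold cutoff, 4 with timepoint as a factor, and 3 with a pseudocount of 0.01, a 12-h harmonic or quantile normalisation. Over all 11863 genes the 1210 calls became 1069, 5761, 2291, 1248, 1752 and 1130 in the same order. In RPF-seq the 3 calls became 5 with no fold cutoff and 2 with a pseudocount of 1, an FDR under 0.01, a 12-h harmonic, timepoint as a factor or quantile normalisation, and in TE with no fold cutoff 0 became 2. Over all genes the 899 RPF-seq calls became 3663, 590, 703, 1258, 1132 and 858 in the same order. The 444 TE calls over all genes became 2028 with no fold cutoff. Leaving out single pools gave 2 to 3 calls in RNA-seq, 2 to 3 in RPF-seq and 0 in TE. Leaving out a replicate series gave 2, 1 to 2 and 0, the lowest in RPF-seq without replicate 1, where Nampt alone was called. With a 12-h harmonic added, the RPF minus RNA peak difference moved to -3.50 h for Nampt, -0.35 h for Kynu and -5.25 h for Sirt1, and the cause was not tested. Single left-out pools gave -2.03 to -1.65 h for Nampt, -4.27 to -3.18 h for Sirt1, 2.27 to 3.29 h for Naprt, -0.09 to 0.49 h for Nadsyn1 and -1.46 to -0.94 h for Kynu, whose interval excluded 0 in 6 of those fits. A left-out replicate series gave -2.08 to -1.40 h for Nampt, -4.28 to -2.83 h for Sirt1, 1.64 to 4.48 h for Naprt, 0.09 to 0.10 h for Nadsyn1 and -1.40 to -0.56 h for Kynu. For Nampt (without replicate 1), Naprt and Sirt1 (without replicate 2) the interval then included 0. The number of neighbours in the order of levels that differed was 7 to 8 in RNA-seq and 6 to 7 in RPF-seq with a replicate series left out. The replicate block changed no call (2, 3 and 0 members), and without pairing the assays of a pool TE also gave 0, with FDRs of 0.0483 for Nampt and 0.134 for Sirt1. Leaving out the pools of replicate 2 at ZT10 and ZT22, chosen after seeing the data, gave 3, 3 and 0 calls, with Qprt added in RNA-seq, and the Sirt1 peak difference became -2.78 h. Qprt was called in RNA-seq in 11 of 24 single-pool fits and Nadsyn1 in RPF-seq in 17 of 24, both lying at the 1.5-fold cutoff. Over all these fits the peak differences of Nampt, Sirt1, Naprt and Kynu kept their sign, and that of Nadsyn1 did not. Depth limits Kynu and Nmnat3 most.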
